A study of Saccharomyces cerevisiae with 20 samples.

Results

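The proteins of the large ribosomal subunit in Saccharomyces cerevisiae are encoded by 81 of the 7126 genes listed, taken by name: every gene called RPL with a number, with or without a final A or B, together with *RPP0*, *RPP1A*, *RPP1B*, *RPP2A* and *RPP2B*, which encode the proteins of the acidic P stalk. The rule used names only. Of the 81 genes, 70 formed 35 pairs of A and B copies and 11 were single copies, and they lay on 14 chromosomes. All 81 had the same start and end in the R64 reference as in the deposited tables, 53 carried an intron, and all 81 passed the filter on low counts in every comparison.

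The mutants were *elp3 deg1* and *urm1 deg1*, together with *elp3 tcd1* and *urm1 tcd1*, each labelled as lacking a pair of tRNA modification genes, and they were compared with WT, all in the BY4741 (S288C) background and all, WT included, carrying *lys2*. Cells went through 10 divisions in synthetic minimal medium, reaching an OD600 of 1 at harvest, and stranded libraries were made from messenger RNA. There were 4 libraries each of *elp3 deg1*, *urm1 deg1* and WT, and 3 of the 4 libraries labelled *elp3 tcd1* and of the 4 labelled *urm1 tcd1* were used. The labels number the replicates without saying whether they were separate cultures, so p-values measure the spread between these libraries, which may be technical.

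The large subunit joins amino acids at its peptidyl transferase centre, passes the chain through an exit tunnel and uses a flexible stalk to bind the GTPases that drive translation. Most of its protein genes exist as A and B copies left by an ancient duplication of the yeast genome, and the copies encode proteins that are the same or nearly so. In yeast these genes are among the most strongly transcribed of all, mainly through the factor Rap1 with its partners Fhl1 and Ifh1, and growth signals through TORC1, Sch9 and Sfp1 tune them together. Elp3 is the catalytic subunit of Elongator and Urm1 the sulfur carrier needed to thiolate the wobble uridine of tRNAs that read lysine, glutamine and glutamate codons, Deg1 makes pseudouridine in the anticodon arm, and Tcd1 forms cyclic t6A next to the anticodon.

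A few stretches of sequence are printed before the values that follow, and no link between the letters and the changes was tested. *RPL4A* and *RPL4B* were the only members whose 500 bases before the start codon held the consensus searched for the factor Abf1 (TCA and ACG with any 6 bases between), without either form searched for Rap1. The match, in capitals, lay 169 bases before the start codon of *RPL4A* (chrII:299976-300005, + strand) and 315 bases before that of *RPL4B* (chrIV:471517-471546, - strand), and both are printed because the pair changed in the opposite direction to most members in both deg1 mutants.
RPL4A: atattaataTCACGTCACACGacgcacagt
RPL4B: tccaatctaTCAAAACTAACGttatctata
The letters ACCCNNACA, 1 form of the Rap1 site, lay 335 bases before the start codon of *RPL41B* (chrIV:222126-222155, - strand), 303 before that of *RPL34A* (chrV:270479-270508, + strand) and 280 before that of *RPL43B* (chrX:608006-608035, + strand), members that were higher than in WT in all 4 mutants. *RPL43B* also held the Abf1 consensus, 180 bases before its start codon. *RPL9B*, *RPL16A* and *RPL24B*, likewise higher in all 4, held the letters of neither factor.
RPL41B: cggttaccacACCCGTACAcccttatctca
RPL34A: aaaatttatcACCCATACAtaccactaaat
RPL43B: atcctttttaACCCATACAtatcatttaga
*RPP1A* and *RPP2B*, lower than in WT in 3 of the mutants, held the letters of neither factor. *RPL3*, which was lower than in WT in the same 3 mutants, held the looser form ATCCNNNCA 389 bases before its start codon (chrXV:444277-444306, - strand).
RPL3: aaatgcgttaATCCCTCCAcctttcctctt
The sequences are those of the RefSeq R64 reference, read 5′ to 3′ on the strand given. A match is a description of the letters and not a site shown to be bound.

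The copies of a pair can be told apart only where their sequences differ. *RPL41A* (chrIV:130455-130484, - strand) and *RPL41B* (chrIV:221772-221801, - strand) differed at 1 of 78 coding bases, in capitals in their first 30 coding bases.
RPL41A: atgagagcCaagtggagaaagaagagaact
RPL41B: atgagagcTaagtggagaaagaagagaact
*RPL15A* (chrXII:202123-202152, - strand) and *RPL15B* (chrXIII:509881-509910, - strand) differed at 42 of 615 coding bases, and their coding bases 439 to 468 held 7 of the differences, in capitals.
RPL15A: cgTtacaactggatctgTGaCccAgtTcaC
RPL15B: cgGtacaactggatctgCAaTccCgtCcaT
In 12 of the 35 pairs every window of 58 bases occurred once in the genome, and in 6 pairs fewer than 50% of the windows did. These 6 were *RPL35* (19.9%), *RPL1* (21.9%), *RPL4* (30.6%), *RPL11* (41.5%), *RPL41* (42.9%) and *RPL7* (46.0%), so the level of each of their copies is uncertain. In 12 pairs the encoded proteins were identical.

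The libraries held 3273876 to 3926511 counts, and 3 counts, the limit that a count of 0 allows, came to 0.764 to 0.916 counts per 1000000 (CPM), covering counting error only. Each member had between 179 and 18546 counts in every library, so depth did not limit any of them. Levels are given below as CPM of the TMM-scaled library, which are not corrected for length and are compared between libraries only. The deleted genes were at 0 to 7 counts in the libraries used, with 1 exception: *TCD1* had 147 to 185 counts in the 3 libraries labelled *elp3 tcd1*, against 377 to 407 in WT, so these libraries are called by their label throughout. Replicate 4 of both tcd1 labels was left out of all comparisons, because their deleted genes went against the labels: with the *elp3 tcd1* label, *ELP3* had 345 counts and *URM1* none, and with the *urm1 tcd1* label, *URM1* had 174 counts and *ELP3* had 5. In *urm1 tcd1* the median log2 fold change of the 321 genes of chromosome XI was 1.01, against -0.05 for the genes of the other chromosomes. *LYS2* had 14 to 102 counts in the libraries used.

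As a share of all counts, the large subunit protein genes stood apart most in *urm1 tcd1*. They took 6.52%, 6.74% and 6.34% of the counts in the *urm1 tcd1* libraries, 5.73%, 5.46%, 5.53% and 5.51% in *urm1 deg1*, 4.69%, 4.51%, 4.85% and 4.76% in *elp3 deg1* and 4.32%, 4.51% and 4.45% in the libraries labelled *elp3 tcd1*, against 4.91%, 4.86%, 4.94% and 4.81% in WT. Both urm1 mutants lay above every WT library and the libraries labelled *elp3 tcd1* below, while *elp3 deg1* overlapped with WT. As group means with their SD, *elp3 deg1* had 4.70% ± 0.14 (n = 4), *urm1 deg1* 5.56% ± 0.12 (n = 4), libraries labelled *elp3 tcd1* 4.43% ± 0.10 (n = 3), *urm1 tcd1* 6.54% ± 0.20 (n = 3) and WT 4.88% ± 0.06 (n = 4).

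**Figure D1:**
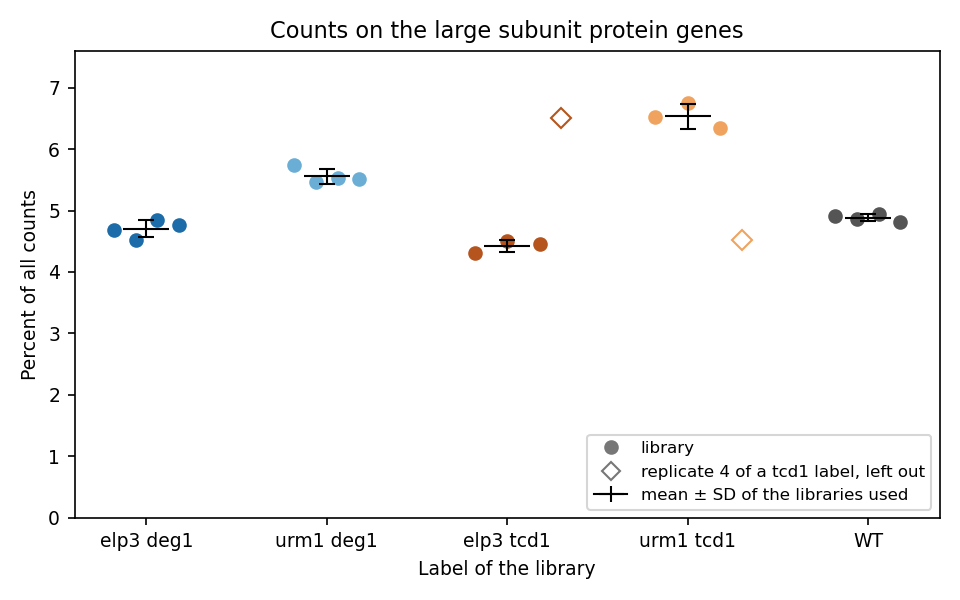
Percent of all counts of a library that fell on the 81 large subunit protein genes, by label (points: libraries; lines: group means of the libraries used; open points: replicate 4 of both tcd1 labels, left out). The urm1 tcd1 libraries used lie between 6.34% and 6.74% and the WT libraries between 4.81% and 4.94%.

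The shares above are of the unscaled library totals, while the levels that follow are TMM-scaled. The mean of log2 level over the 81 genes, relative to the WT mean, came to 0.20 ± 0.05 in *elp3 deg1*, 0.21 ± 0.04 in *urm1 deg1*, -0.07 ± 0.03 in libraries labelled *elp3 tcd1* and 0.74 ± 0.07 in *urm1 tcd1*, with an SD of 0.02 among the WT libraries. *RPL3* alone took 0.279% of the counts in *elp3 deg1* and 0.537% in WT. With *RPL3* left out, a choice made after seeing the data, the other members took 4.42% ± 0.14 in *elp3 deg1*, 5.22% ± 0.12 in *urm1 deg1*, 4.11% ± 0.10 in libraries labelled *elp3 tcd1* and 6.09% ± 0.19 in *urm1 tcd1*, against 4.34% ± 0.06 in WT. Scaled by library size alone, as the shares are, the median log2 fold change of the members in *elp3 deg1* was 0.10, against 0.24 with TMM. These sums over genes were not tested.

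Gene by gene, most large subunit protein genes were higher than in WT in both deg1 mutants and *urm1 tcd1*, and more were lower than higher in the libraries labelled *elp3 tcd1*. In *elp3 deg1*, 49 of the 81 rose and 15 fell (edgeR quasi-likelihood test, adjusted p at or under 0.01), where 33.6% of all 5683 tested genes rose and 34.1% fell (67.7% either way). In *urm1 deg1*, 49 rose and 11 fell, against 33.6% and 33.4% of all tested genes (67.0% either way). In libraries labelled *elp3 tcd1*, 22 rose and 37 fell, against 32.7% and 32.5% (65.1%). In *urm1 tcd1*, 78 rose and 1 fell, against 33.2% and 33.0% (66.2%). The members' median log2 fold change came to 0.24 in either deg1 mutant, -0.07 in libraries labelled *elp3 tcd1* and 0.77 in *urm1 tcd1*, while the median over all tested genes lay within 0.02 of 0 in each. Scaled by library size alone, which put the median of all genes at -0.14 in *elp3 deg1* and at -0.29 in *urm1 tcd1*, 40 members rose and 26 fell in *elp3 deg1* and 68 rose and 4 fell in *urm1 tcd1*, and with upper quartile scaling 27 rose and 29 fell in libraries labelled *elp3 tcd1*. The 4 comparisons share the WT libraries.

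A log2 fold change of 1 or more, past the test, was reached by 1 member in *elp3 deg1*, by none with the *urm1 deg1* or *elp3 tcd1* label, and by 15 in *urm1 tcd1*, where 6.95%, 5.82%, 6.63% and 7.91% of all tested genes did so in the order *elp3 deg1*, *urm1 deg1*, *elp3 tcd1* label, *urm1 tcd1*. A log2 fold change of -1 or less, past the test, was reached by no member in any mutant, where 5.33%, 6.55%, 3.83% and 5.14% of all tested genes did so in that order. All mutant libraries lay above all WT libraries for 48 members in *elp3 deg1*, 51 in *urm1 deg1*, 24 in libraries labelled *elp3 tcd1* and 77 in *urm1 tcd1*, and below them for 15, 9, 37 and 1. Of all tested genes, 34.0%, 35.6%, 35.3% and 34.9% lay above in that order and 34.2%, 31.4%, 33.8% and 36.2% below. On the log2 scale the lowest and highest member were -0.87 and 1.21 for *elp3 deg1*, -0.99 and 0.76 for *urm1 deg1*, -0.82 and 0.65 for libraries labelled *elp3 tcd1*, and -0.52 and 1.88 for *urm1 tcd1*.

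**Figure D2:**
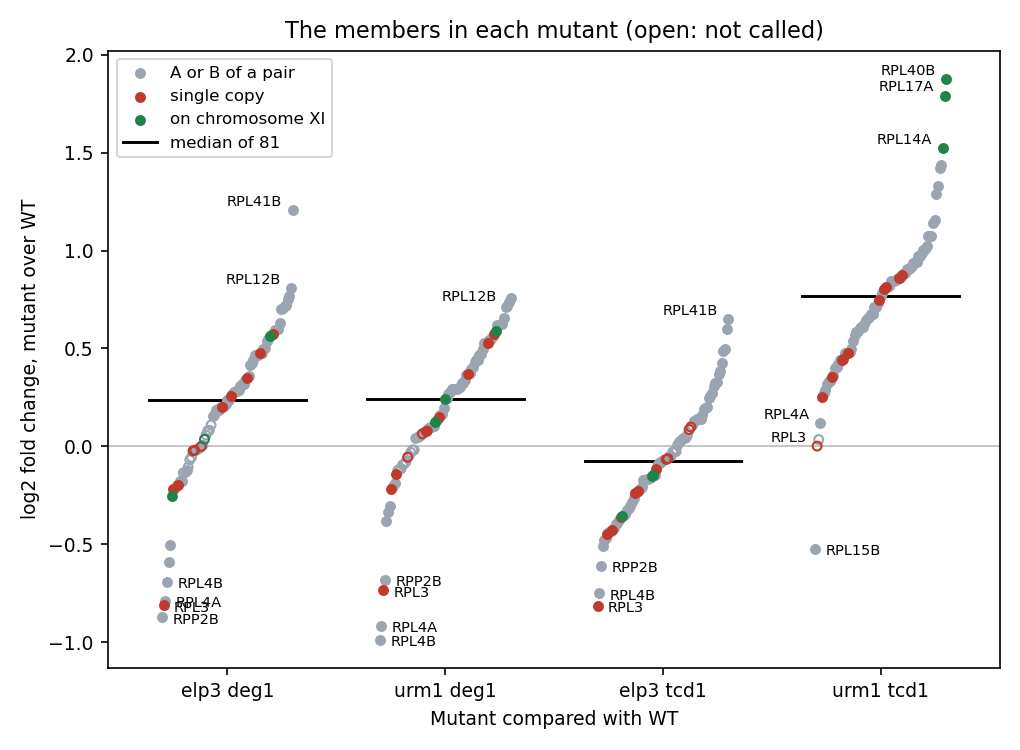
Log2 fold change over WT of each of the 81 large subunit protein genes (points) in each mutant, with filled points for those past the test and open points for the others. Medians are 0.24, 0.24, -0.07 and 0.77 from left to right, RPL3, RPL4A, RPL4B and RPP2B lie lowest in the first 2 columns, and RPL3, RPL4B and RPP2B in the third.

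Among the proteins around the peptidyl transferase centre and the L1 stalk, 6 genes in all, 1 rose and 4 fell in *elp3 deg1*, 1 rose and 2 fell in *urm1 deg1*, none rose and 5 fell in libraries labelled *elp3 tcd1*, and 5 rose and none fell in *urm1 tcd1*. The lowest log2 fold changes among these 6, in each mutant, were those of *RPL3*, whose protein reaches towards the catalytic centre (chrXV:444686-445849, + strand, no intron). *RPL3* had 2965, 2940.1, 2903 and 2916 CPM in *elp3 deg1* libraries, 3218, 3122, 3186 and 3051 in *urm1 deg1* libraries, 2912, 2932 and 2960.0 in those labelled *elp3 tcd1* and 5145, 5326 and 4946 in *urm1 tcd1* libraries, against 5100.0, 5192, 5153 and 5139 in WT. The libraries of the first 3 strains all lay far below WT, whereas those of *urm1 tcd1* fell on both sides of it. The log2 fold change of *RPL3* stood at -0.81 ± 0.03 in *elp3 deg1* (SE, edgeR adjusted p = 2.09e-24), -0.73 ± 0.02 in *urm1 deg1*, -0.82 ± 0.02 in libraries labelled *elp3 tcd1* and 0.00 ± 0.03 in *urm1 tcd1*, where it did not pass the test and was at -0.27 when scaled by library size alone.

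*RPL10* encodes the protein that joins the subunit last, in the cytoplasm, and lies close to the catalytic centre. For *RPL10* the *elp3 deg1* libraries gave 2314, 2227, 2367 and 2309 CPM, in *urm1 deg1* there were 2579.8, 2457, 2516 and 2463, with the *elp3 tcd1* label 2156, 2345 and 2234 and in *urm1 tcd1* 4166, 4409 and 4109.5, against 2338, 2396, 2302 and 2305 in WT. Only the *urm1 tcd1* libraries stood clear of WT by a wide margin, at a log2 fold change of 0.86 ± 0.03, and the 0.08 in *urm1 deg1* passed the test narrowly and lost its call without any of 5 single libraries. *RPL2A* and *RPL2B*, whose protein contacts the rRNA beside the catalytic centre, had log2 fold changes of -0.20 and -0.18 in *elp3 deg1*, -0.48 and -0.47 in libraries labelled *elp3 tcd1* and 0.44 and 0.50 in *urm1 tcd1*. In *urm1 deg1* *RPL2A* fell by 0.30 on the log2 scale and *RPL2B*, at -0.02, did not pass. *RPL1A* and *RPL1B*, which encode the protein of the stalk that guides tRNA out of the ribosome, were at -0.42 and -0.35 in libraries labelled *elp3 tcd1* and 0.40 and 0.47 in *urm1 tcd1*, but fewer than 50% of their windows were unique.

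The P stalk and its base hold 7 genes, of which 3 rose and 2 fell in *elp3 deg1*, 3 rose and 3 fell in *urm1 deg1*, 1 rose and 4 fell in libraries labelled *elp3 tcd1*, and 7 rose in *urm1 tcd1*. *RPP0* encodes the core of the stalk, to which dimers of the acidic proteins P1 and P2 bind. The CPM of *RPP0* were 1362, 1251, 1286 and 1353 for *elp3 deg1*, 1366, 1234, 1345 and 1279 for *urm1 deg1*, 1009.7, 938 and 993 for the *elp3 tcd1* label and 1702, 1763 and 1638 for *urm1 tcd1*, against 1258, 1346, 1394 and 1339 for WT. It lay below WT only in libraries labelled *elp3 tcd1* (-0.45 ± 0.03 on the log2 scale) and above WT in *urm1 tcd1* (0.35 ± 0.03). In *elp3 deg1* and *urm1 deg1* its changes of -0.02 and -0.06 did not pass the test.

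*RPP2B*, 1 of the P2 genes, showed the lowest value of any member in *elp3 deg1* (chrIV:1239492-1239824, + strand, no intron). *RPP2B* had 463, 436, 462 and 486 CPM in *elp3 deg1* libraries, 559, 539, 508 and 539 in *urm1 deg1* libraries, 521, 578 and 571 in those labelled *elp3 tcd1* and 1055, 1054 and 1045 in *urm1 tcd1* libraries, against 867, 795, 902 and 819 in WT. The first 3 strains had no library within the WT range, and *urm1 tcd1* lay above it. The log2 fold change reached -0.87 ± 0.04 in *elp3 deg1*, -0.68 ± 0.04 in *urm1 deg1*, -0.61 ± 0.04 in libraries labelled *elp3 tcd1* and 0.32 ± 0.04 in *urm1 tcd1*. *RPP1A*, a P1 gene, fell with it in the same 3 strains, by 0.59, 0.38 and 0.51 on the log2 scale, and rose by 0.42 in *urm1 tcd1*. The other P1 and P2 genes followed only in part: *RPP1B* rose by 0.31 with *elp3 deg1* and 0.29 with *urm1 deg1*, and *RPP2A* was at 0.08 in *elp3 deg1*, which did not pass, but fell in *urm1 deg1* (-0.20) and in libraries labelled *elp3 tcd1* (-0.35) and rose in *urm1 tcd1* (0.61).

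*RPL12B* encodes the protein at the stalk base and was among the largest increases in both deg1 mutants. For *RPL12B* the *elp3 deg1* libraries gave 715, 710.2, 771 and 738 CPM, in *urm1 deg1* there were 737, 687, 665 and 711, with the *elp3 tcd1* label 537, 592 and 562 and in *urm1 tcd1* 1041, 1078 and 1030.2, against 429, 410.4, 429 and 404 in WT. No mutant library overlapped with WT. The log2 fold change came to 0.81 ± 0.04 in *elp3 deg1*, 0.72 ± 0.04 in *urm1 deg1*, 0.42 ± 0.04 in libraries labelled *elp3 tcd1* and 1.33 ± 0.04 in *urm1 tcd1*. Its copy *RPL12A*, which encodes the same protein, was at 0.32, 0.27, -0.03 and 0.85 in the same order, and all but the third passed the test.

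The 3 genes of the 5S ribonucleoprotein, which carries 5S rRNA into the subunit, gave 2 increases and no decrease in *elp3 deg1*, 1 and none in *urm1 deg1*, none and 2 in libraries labelled *elp3 tcd1*, and 3 and none in *urm1 tcd1*. The CPM of *RPL5* were 1626, 1527, 1607 and 1604 for *elp3 deg1*, 1561, 1505, 1502 and 1431 for *urm1 deg1*, 1181, 1253 and 1259 for the *elp3 tcd1* label and 2277, 2295 and 2123 for *urm1 tcd1*, against 1295, 1362, 1346 and 1317 for WT. *RPL5* binds the 5S rRNA directly, and its level lay above WT in *elp3 deg1* (0.26 ± 0.03), *urm1 deg1* (0.15 ± 0.03) and *urm1 tcd1* (0.75 ± 0.03) and below it in libraries labelled *elp3 tcd1* (-0.12 ± 0.03). *RPL11A* and *RPL11B*, its partner protein, were at 0.84 and 0.90 in *urm1 tcd1*.

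Of the 14 genes whose proteins line the exit tunnel or form its rim, 7 rose and 3 fell in *elp3 deg1*, 9 rose and 3 fell in *urm1 deg1*, 3 rose and 10 fell in libraries labelled *elp3 tcd1*, and all 14 rose in *urm1 tcd1*. The *RPL4* pair, whose protein extends a loop into the tunnel, held the largest decreases of *urm1 deg1*. *RPL4A* had 419, 399, 413 and 399 CPM in *elp3 deg1* libraries, 405, 373, 360.2 and 377 in *urm1 deg1* libraries, 506, 531 and 533 in those labelled *elp3 tcd1* and 752, 814 and 723 in *urm1 tcd1* libraries, against 694, 700.1, 730.2 and 691 in WT. For *RPL4B* the *elp3 deg1* libraries gave 283, 279, 299 and 297 CPM, in *urm1 deg1* there were 253, 235, 230.4 and 238, with the *elp3 tcd1* label 279.6, 284 and 272 and in *urm1 tcd1* 556, 594 and 534, against 463, 462, 475 and 466 in WT. Both copies lay below every WT library in both deg1 mutants and with the *elp3 tcd1* label. The log2 fold change of *RPL4A* stood at -0.79 ± 0.04 in *elp3 deg1*, -0.92 ± 0.03 in *urm1 deg1*, -0.43 ± 0.03 in libraries labelled *elp3 tcd1* and 0.12 ± 0.04 in *urm1 tcd1*, where the edgeR adjusted p was 0.00554 and the call was lost without any of 5 single libraries. That of *RPL4B* was -0.69 ± 0.04, -0.99 ± 0.04, -0.75 ± 0.04 and 0.27 ± 0.04 in the same order. With 30.6% of windows unique, the 2 copies cannot be fully told apart, though both moved the same way in each strain.

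*RPL25* encodes the rim protein next to which the signal recognition particle docks. The CPM of *RPL25* were 1006, 969, 1041 and 995 for *elp3 deg1*, 1222, 1117, 1142 and 1113 for *urm1 deg1*, 711, 775 and 745 for the *elp3 tcd1* label and 1178, 1269 and 1098 for *urm1 tcd1*, against 865, 863, 908 and 856 for WT. It rose in *elp3 deg1* (0.20 ± 0.03), *urm1 deg1* (0.37 ± 0.03) and *urm1 tcd1* (0.44 ± 0.04) and fell by 0.24 on the log2 scale in libraries labelled *elp3 tcd1*. *RPL39*, a very short protein of the tunnel wall, moved the same way with both tcd1 labels but did not rise in the deg1 mutants. *RPL39* had 461, 439, 458 and 457 CPM in *elp3 deg1* libraries, 451, 402, 434 and 388 in *urm1 deg1* libraries, 327, 366 and 325 in those labelled *elp3 tcd1* and 623, 664 and 564 in *urm1 tcd1* libraries, against 438, 464, 479 and 434 in WT. It passed the test as lower in *urm1 deg1* (-0.14 ± 0.04, a call lost without any of 3 single libraries) and in libraries labelled *elp3 tcd1* (-0.43 ± 0.04) and as higher in *urm1 tcd1* (0.45 ± 0.05). The rim genes *RPL26A* and *RPL26B* rose in all 4 mutants, by 0.70 and 0.50 in *elp3 deg1*, by 0.55 and 0.53 in *urm1 deg1*, 0.19 and 0.27 in libraries labelled *elp3 tcd1* and 0.94 and 1.14 in *urm1 tcd1* on the log2 scale. *RPL31A*, another rim gene, fell by 0.12 in *elp3 deg1* and by 0.39 in libraries labelled *elp3 tcd1*, and rose by 0.54 in *urm1 tcd1*.

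The remaining single-copy genes differed in direction. *RPL29* and *RPL38*, both of which yeast can live without, were raised in both deg1 mutants. For *RPL29* the *elp3 deg1* libraries gave 358, 359, 371 and 360.1 CPM, in *urm1 deg1* there were 382, 359, 345 and 344, with the *elp3 tcd1* label 254, 281 and 252 and in *urm1 tcd1* 424, 451 and 398, against 252, 246, 228 and 249 in WT. The CPM of *RPL38* were 483, 492, 525 and 478 for *elp3 deg1*, 576, 514, 526 and 539 for *urm1 deg1*, 379.7, 392.14 and 365 for the *elp3 tcd1* label and 611, 652 and 606 for *urm1 tcd1*, against 369, 349, 358 and 345 for WT. Their log2 fold changes were 0.57 ± 0.04 and 0.48 ± 0.04 in *elp3 deg1*, 0.53 ± 0.04 and 0.58 ± 0.04 for *urm1 deg1* and 0.80 ± 0.05 and 0.81 ± 0.04 in *urm1 tcd1*, while the 0.10 and 0.09 in libraries labelled *elp3 tcd1* did not pass.

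*RPL28*, in which mutations give resistance to cycloheximide, and *RPL30*, whose protein represses the splicing of its own transcript, moved the other way in *elp3 deg1*. *RPL28* had 1377, 1378, 1421 and 1352 CPM in *elp3 deg1* libraries, 1812, 1684, 1694 and 1696 in *urm1 deg1* libraries, 1362, 1394 and 1372 in those labelled *elp3 tcd1* and 1894, 1977 and 1839 in *urm1 tcd1* libraries, against 1577, 1574, 1676 and 1587 in WT. For *RPL30* the *elp3 deg1* libraries gave 789, 770.4, 808 and 815 CPM, in *urm1 deg1* there were 847, 775, 767 and 799, with the *elp3 tcd1* label 689, 746 and 706 and in *urm1 tcd1* 1237, 1328 and 1229.8, against 921, 893, 924 and 904 in WT. *RPL28* was at -0.21 ± 0.03 in *elp3 deg1*, 0.08 ± 0.03 in *urm1 deg1* (not passed), -0.23 ± 0.03 in libraries labelled *elp3 tcd1* and 0.25 ± 0.03 in *urm1 tcd1*. *RPL30* fell by 0.20, 0.22 and 0.36 in the first 3 and rose by 0.48 in *urm1 tcd1* on the log2 scale. The CPM of *RPL32* were 883, 848, 920.1 and 937 for *elp3 deg1*, 773, 758, 729.6 and 736 for *urm1 deg1*, 656, 687 and 685 for the *elp3 tcd1* label and 1298, 1351 and 1219 for *urm1 tcd1*, against 731, 698, 712 and 676 for WT. *RPL32*, an essential protein of the solvent side, rose in *elp3 deg1* (0.35 ± 0.03) and *urm1 tcd1* (0.88 ± 0.04) and did not pass in *urm1 deg1* (0.06) or in libraries labelled *elp3 tcd1* (-0.07). Over all 11 single-copy genes, 5 rose and 3 fell in each deg1 mutant, none rose and 7 fell in libraries labelled *elp3 tcd1*, and 10 rose and none fell in *urm1 tcd1*.

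Among the members with A and B copies, *RPL41B* showed the largest increase of *elp3 deg1* and of the libraries labelled *elp3 tcd1*. It encodes the smallest ribosomal protein, which bridges the subunits. *RPL41B* had 292, 271, 309.9 and 286 CPM in *elp3 deg1* libraries, 238, 196, 215 and 189 in *urm1 deg1* libraries, 213, 196 and 184 in those labelled *elp3 tcd1* and 319, 349 and 250.1 in *urm1 tcd1* libraries, against 137, 119, 127 and 118 in WT. All 14 mutant libraries exceeded the 4 of WT. The log2 fold change reached 1.21 ± 0.05 in *elp3 deg1*, 0.71 ± 0.06 in *urm1 deg1*, 0.65 ± 0.05 in libraries labelled *elp3 tcd1* and 1.29 ± 0.07 in *urm1 tcd1*, and within the coding sequence a single base separates it from *RPL41A*, as printed above.

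*RPL9B*, whose protein lies at the base of the stalk region, rose in all 4 mutants. For *RPL9B* the *elp3 deg1* libraries gave 527, 491, 544 and 541 CPM, in *urm1 deg1* there were 432, 406, 413 and 376, with the *elp3 tcd1* label 459, 471 and 481 and in *urm1 tcd1* 425, 460.5 and 405, against 313, 328, 296 and 298 in WT. Its log2 fold change came to 0.77 ± 0.04 in *elp3 deg1*, 0.37 ± 0.04 in *urm1 deg1*, 0.60 ± 0.04 in libraries labelled *elp3 tcd1* and 0.48 ± 0.05 in *urm1 tcd1*. *RPL34A* and *RPL43B*, both rRNA-binding proteins, also rose in all 4. The CPM of *RPL34A* were 411, 379, 427 and 408 for *elp3 deg1*, 399, 389, 399.7 and 399 for *urm1 deg1*, 339.9, 358 and 354 for the *elp3 tcd1* label and 662, 704 and 643 for *urm1 tcd1*, against 249.7, 246, 247 and 248 for WT. *RPL43B* had 318, 289, 307 and 323 CPM in *elp3 deg1* libraries, 336, 291, 314 and 305 in *urm1 deg1* libraries, 214, 203 and 216 in those labelled *elp3 tcd1* and 331, 349 and 307 in *urm1 tcd1* libraries, against 174, 192, 191 and 178 in WT. *RPL34A* changed by 0.71 ± 0.04, 0.66 ± 0.04, 0.50 ± 0.04 and 1.44 ± 0.04 in the order *elp3 deg1*, *urm1 deg1*, libraries labelled *elp3 tcd1*, *urm1 tcd1*. *RPL43B* changed by 0.75 ± 0.05, 0.74 ± 0.04, 0.19 ± 0.05 and 0.84 ± 0.05 in that order.

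**Figure D3:**
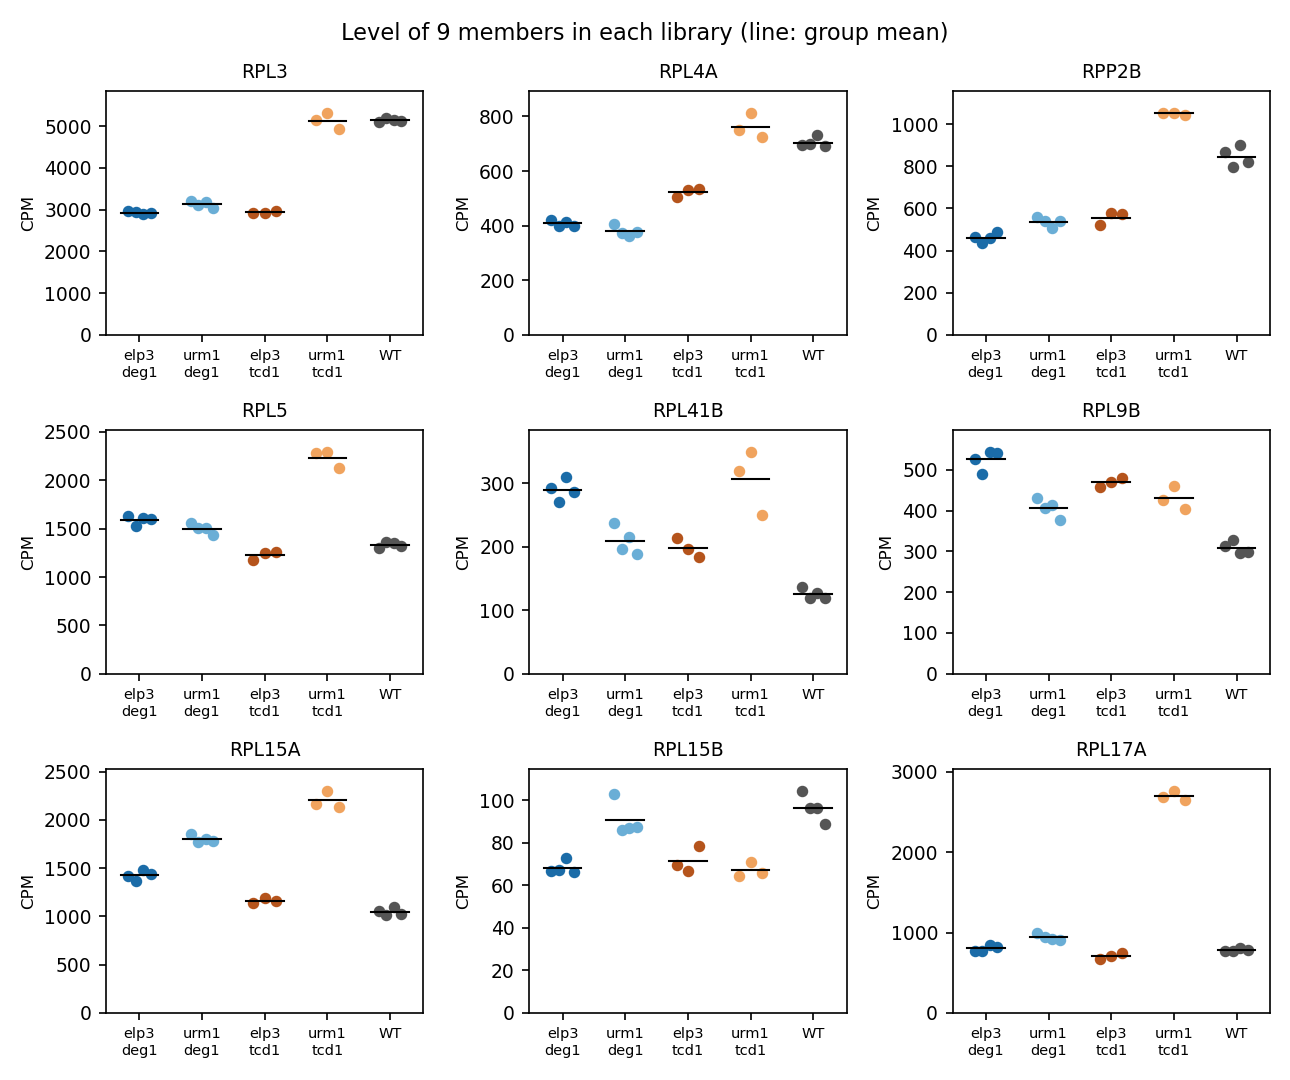
CPM of 9 large subunit protein genes in each library used, by group (points: libraries; lines: group means; each panel's axis starts at 0). RPL3 lies between 4946 and 5326 CPM in urm1 tcd1 and between 5100.0 and 5192 CPM in WT, and between 2903 and 3218 CPM in the other 3 groups.

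The pair *RPL15A* and *RPL15B*, encoding an essential protein deep in the rRNA core, had copies that moved in opposite directions in all but *urm1 deg1*. Copies were called in opposite directions in 6 of the 35 pairs in *elp3 deg1*, 2 in *urm1 deg1*, 9 in libraries labelled *elp3 tcd1* and 1, this pair, in *urm1 tcd1*. Opposite calls were not counted in pairs outside the large subunit, so whether these numbers are high or low is not known. For *RPL15A* the *elp3 deg1* libraries gave 1419, 1362, 1484 and 1442 CPM, in *urm1 deg1* there were 1852, 1769, 1804 and 1784, with the *elp3 tcd1* label 1136, 1194 and 1158 and in *urm1 tcd1* 2169, 2303 and 2135, against 1054, 1018, 1095 and 1028 in WT. The CPM of *RPL15B* were 66.6, 67.4, 72.7 and 66.3 for *elp3 deg1*, 103, 86.0, 87.1 and 87.2 for *urm1 deg1*, 69.4, 66.9 and 78.4 for the *elp3 tcd1* label and 64.6, 70.9 and 66.0 for *urm1 tcd1*, against 104, 96.5, 96.3 and 89.1 for WT. All mutant libraries of *RPL15A* lay above WT. Its log2 fold change stood at 0.44 ± 0.03 in *elp3 deg1*, 0.76 ± 0.03 in *urm1 deg1*, 0.14 ± 0.03 in libraries labelled *elp3 tcd1* and 1.07 ± 0.03 in *urm1 tcd1*. *RPL15B* was at -0.50 ± 0.06, -0.12 ± 0.06, -0.44 ± 0.07 and -0.52 ± 0.07 in the same order and passed the test as lower in all but *urm1 deg1*. It was the 1 member that fell in *urm1 tcd1*.

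The 3 members on chromosome XI had the largest increases of *urm1 tcd1*: *RPL40B*, a ubiquitin fusion (chrXI:617996-618750, - strand, 1 intron), *RPL17A*, a protein of the tunnel exit (chrXI:109269-110129, + strand, 1 intron), and *RPL14A*, a surface protein (chrXI:431906-432720, + strand, 1 intron). *RPL40B* had 546, 518, 551 and 545 CPM in *elp3 deg1* libraries, 579, 583, 549.8 and 523 in *urm1 deg1* libraries, 326, 344 and 326 in those labelled *elp3 tcd1* and 1351, 1379.7 and 1286 in *urm1 tcd1* libraries, against 345, 381, 369 and 367 in WT. For *RPL17A* the *elp3 deg1* libraries gave 775, 769, 850.2 and 819.6 CPM, in *urm1 deg1* there were 991, 947, 918 and 906, with the *elp3 tcd1* label 676, 704 and 748 and in *urm1 tcd1* 2689, 2767 and 2655, against 774, 769, 812 and 776 in WT. The CPM of *RPL14A* were 274, 235, 279 and 270.4 for *elp3 deg1*, 355, 347, 355 and 342 for *urm1 deg1*, 249, 251 and 242 for the *elp3 tcd1* label and 903, 988 and 819.6 for *urm1 tcd1*, against 323, 313, 313 and 312 for WT. The *urm1 tcd1* libraries lay far above all others for each of the 3. The log2 fold changes in *urm1 tcd1* were 1.88 ± 0.04 for *RPL40B*, 1.79 ± 0.03 for *RPL17A* and 1.52 ± 0.05 for *RPL14A*. The median over the 321 genes of chromosome XI in these libraries was 1.01, and that over the 78 members on other chromosomes was 0.74, of which 75 rose and 1 fell. What the level of the chromosome as a whole contributed to the 3 values was not tested.

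In the other strains the values of these 3 genes lay within the range of the other members. *RPL40B* was at 0.56 in *elp3 deg1*, 0.59 in *urm1 deg1* and -0.14 in libraries labelled *elp3 tcd1*, and *RPL17A* at 0.04 (not passed), 0.24 and -0.15. *RPL14A* fell by 0.25 in *elp3 deg1* and by 0.36 in libraries labelled *elp3 tcd1*, and rose by 0.12 in *urm1 deg1* on the log2 scale. *RPL40A*, the other gene for the ubiquitin fusion, was at 0.48, 0.28, -0.05 and 1.00 across the mutants in the order used so far, and all but the third passed.

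Of the other members, *RPL20A*, *RPL20B*, *RPL42A*, *RPL42B*, *RPL16A*, *RPL21B*, *RPL24B* and *RPL35B* rose in both deg1 mutants and in *urm1 tcd1*. All of them but *RPL42A* also rose in libraries labelled *elp3 tcd1*. In *urm1 tcd1* the 15 members with a log2 fold change of 1 or more included *RPL20B* (1.42), *RPL26B* (1.14), *RPL24A* (1.08) and *RPL35B* (1.08). The members that did not pass there were *RPL3* and *RPL22B*. *RPL22B*, at 0.04 in *urm1 tcd1*, fell by 0.33 in *urm1 deg1* and rose by 0.21 in *elp3 deg1* and 0.26 in libraries labelled *elp3 tcd1* on the log2 scale. *RPL13A*, *RPL27A*, *RPL33A* and *RPL16B* fell in libraries labelled *elp3 tcd1*, by 0.30, 0.32, 0.17 and 0.38, and rose in *urm1 tcd1*, by 0.36, 0.64, 0.66 and 0.40.

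The mutants were also tested against each other in 1 fit over all 5 groups. Averaged over both second deletions, the elp3 mutants were lower than the urm1 mutants in 76 members and higher in 2. Of all 5849 tested genes, 27.7% were lower and 28.7% higher (56.4% either way). The median log2 difference of the members was -0.42 in this average, but -0.02 with deg1 alone and -0.83 with tcd1 alone. Against the tcd1 mutants, the deg1 mutants were lower in 48 members and higher in 8, where 33.4% of all tested genes were lower and 31.3% higher (64.7%), with a median of -0.11. That contrast averages tcd1 groups lying on either side of the deg1 mutants. Against WT the members' median was 0.24 in either deg1 mutant, -0.07 in libraries labelled *elp3 tcd1* and 0.77 in *urm1 tcd1*. Both contrasts take in *urm1 tcd1*, in which chromosome XI was raised, and the *elp3 tcd1* label, which kept *TCD1* counts. Scaled by library size alone, deg1 mutants were lower in 31 members and higher in 19. Off chromosome XI the counts were 73 lower and 2 higher of 78 for elp3 against urm1, and 45 lower and 8 higher for deg1 against tcd1.

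The difference between elp3 and urm1 was not the same with the deg1 and the tcd1 labels, in contrasts chosen after seeing the data. The tcd1 side compares *urm1 tcd1*, in which chromosome XI was raised, with the *elp3 tcd1* label, which kept *TCD1* counts. What the second deletion itself contributed was not tested. With deg1, *elp3 deg1* was lower than *urm1 deg1* in 27 members and higher in 18 (31.0% and 31.4% of all tested genes, 62.4% together), with a median of -0.02. With tcd1, the libraries labelled *elp3 tcd1* were lower than *urm1 tcd1* in 76 members and higher in 1 (29.7% and 30.3%, 60.0% together), with a median of -0.83. The interaction itself, the elp3 minus urm1 difference with deg1 minus that with tcd1, was above 0 in 79 members and below 0 in 1 (33.9% and 33.6% of all tested genes, 67.6% together), with a median of 0.77. The 1 member higher in libraries labelled *elp3 tcd1* than in *urm1 tcd1* was *RPL22B*, at 0.23, chosen after its values were seen. Scaled by library size alone, *elp3 deg1* was lower than *urm1 deg1* in 57 members and higher in 5. Within the deg1 mutants, *RPL41B*, at 0.47, and *RPL9B*, at 0.37, were higher in *elp3 deg1*, while *RPL9A*, at -0.35, and *RPL14A*, at -0.41, were lower.

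**Figure D4:**
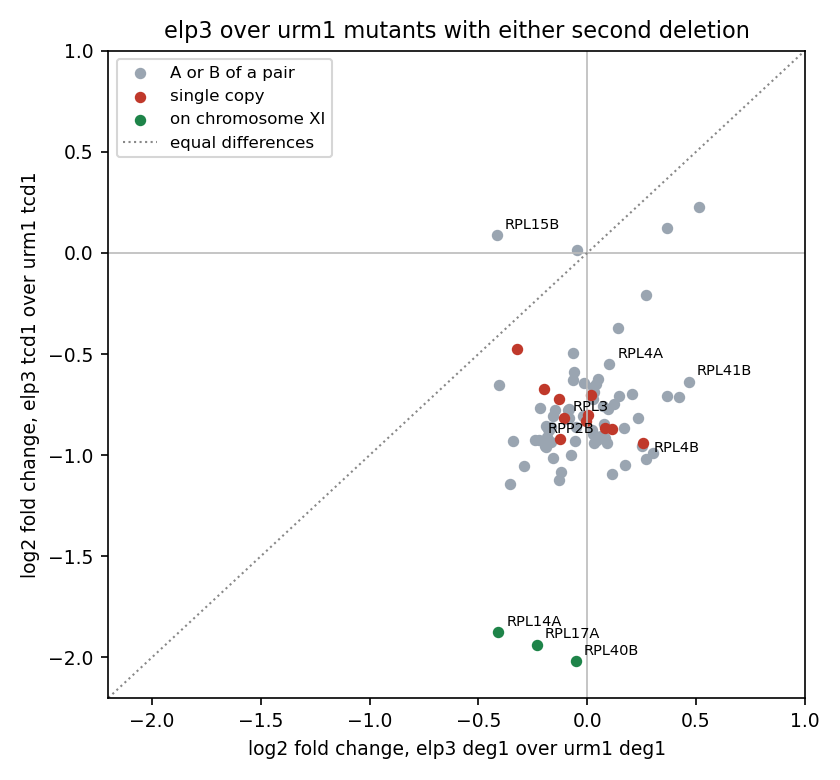
Log2 fold change of each large subunit protein gene in elp3 deg1 over urm1 deg1 (horizontal axis) against libraries labelled elp3 tcd1 over urm1 tcd1 (vertical axis), with a dotted line where both are equal. The medians are -0.02 on the horizontal and -0.83 on the vertical axis, and all but 1 member with a called interaction lie below the line.

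The A and B copies were then compared within each library, as the log2 ratio of their counts, which needs no scaling between libraries. In WT the A copy had more counts in 18 pairs and the B copy in 17. The ratio changed in 28 of the 35 pairs in *elp3 deg1*, 23 in *urm1 deg1*, 23 in libraries labelled *elp3 tcd1* and 26 in *urm1 tcd1* (limma, adjusted p at or under 0.01 over 61 pairs of nuclear genes named A and B). Over all 61 pairs, 78.7%, 67.2%, 73.8% and 77.0% changed in the same order, and among the 26 pairs outside the large subunit the numbers were 20, 18, 22 and 21. Whether the large subunit pairs changed more or less often than these was not tested. The B copy gained in 19, 16, 17 and 15 of the changed pairs and the A copy in 9, 7, 6 and 11. The copy with fewer counts in WT gained in 18, 13, 16 and 12 of the changed pairs and the copy with more in 10, 10, 7 and 14.

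**Figure D5:**
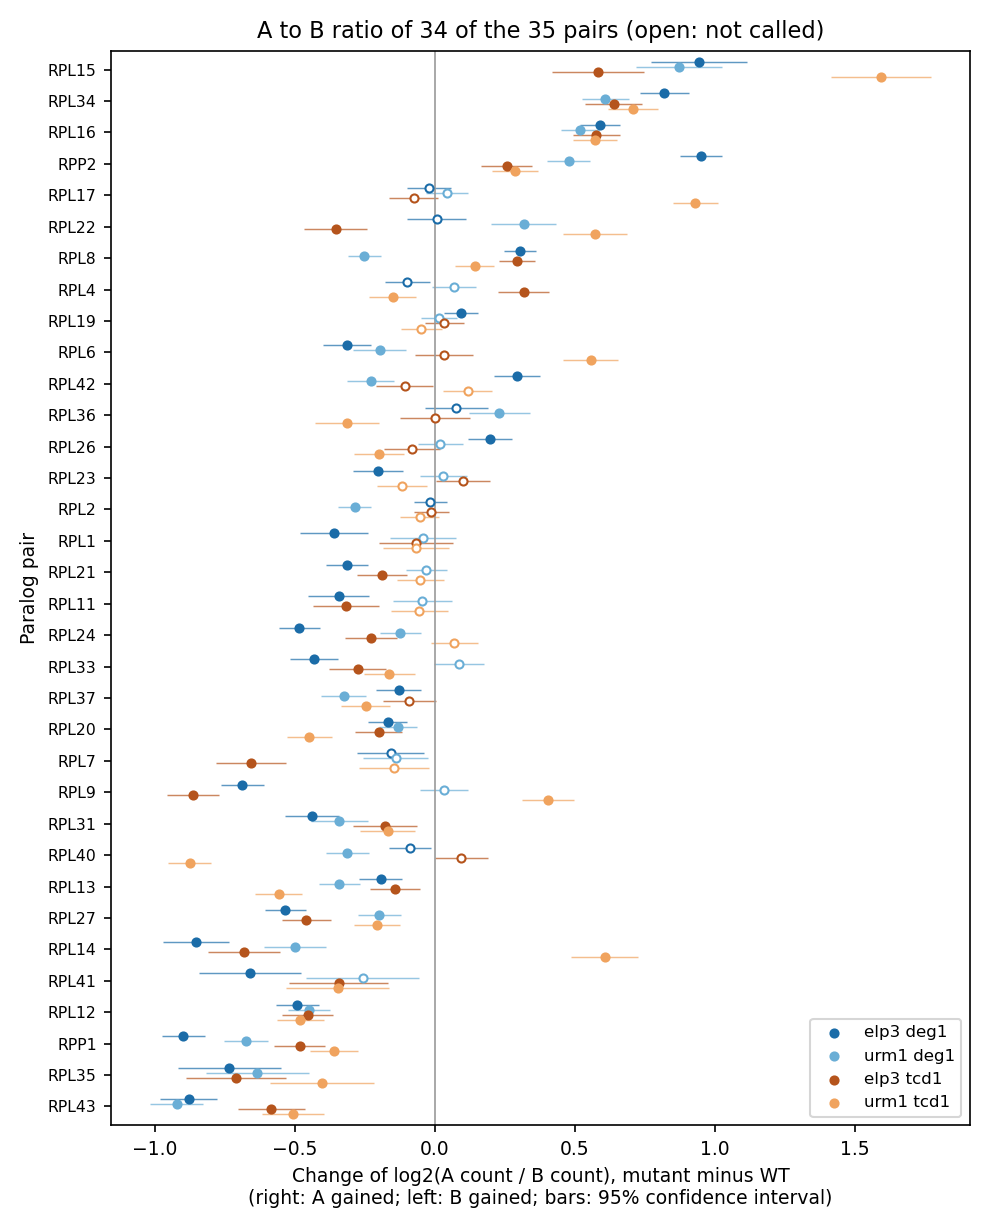
Change over WT of log2(A count / B count) for 34 of the 35 large subunit pairs in each mutant, with 95% confidence intervals, filled where past the test. RPL15 lies furthest to the right, at 1.59 in urm1 tcd1, and RPL43 and RPP1 lie to the left at -0.92 and -0.90 in urm1 deg1 and elp3 deg1.

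The *RPL15* pair showed the largest shift of *urm1 tcd1*. *RPL15A* made up 95.5%, 95.3%, 95.3% and 95.6% of the counts of its pair in *elp3 deg1* libraries, 94.7%, 95.4%, 95.4% and 95.3% in *urm1 deg1* libraries, 94.2%, 94.7% and 93.7% in those labelled *elp3 tcd1* and 97.1%, 97.01% and 97.00% in *urm1 tcd1* libraries, against 90.98%, 91.3%, 91.9% and 92.03% in WT. The A copy gained in all 4 mutants, with changes of the log2 ratio of 0.94 ± 0.09 in *elp3 deg1* (SE), 0.87 ± 0.08 in *urm1 deg1*, 0.58 ± 0.08 in libraries labelled *elp3 tcd1* and 1.59 ± 0.09 in *urm1 tcd1*. *RPL34* also shifted to its A copy in all 4. The share of *RPL34A* in its pair was 48.9%, 47.4%, 48.6% and 48.5% for *elp3 deg1*, 44.7%, 44.98%, 44.8% and 44.4% for *urm1 deg1*, 45.01%, 45.1% and 45.6% for the *elp3 tcd1* label and 46.96%, 45.98% and 46.3% for *urm1 tcd1*, against 35.1%, 34.8%, 33.5% and 35.3% for WT. Its changes were 0.82 ± 0.04 in *elp3 deg1*, 0.61 ± 0.04 in *urm1 deg1*, 0.64 ± 0.05 in libraries labelled *elp3 tcd1* and 0.71 ± 0.05 in *urm1 tcd1*.

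The acidic stalk genes shifted in both directions. Of the counts of the *RPP2* pair, the A copy took 49.4%, 49.7%, 49.9% and 48.9% in *elp3 deg1*, then 41.7%, 40.5%, 41.8% and 41.4% in *urm1 deg1*, 38.8%, 37.2% and 37.1% with the *elp3 tcd1* label and 37.8%, 39.2% and 37.5% in *urm1 tcd1*, against 33.6%, 33.9%, 32.3% and 34.6% in WT. The change of the *RPP2* ratio was largest in *elp3 deg1*, at 0.95 ± 0.04, against 0.48 ± 0.04 in *urm1 deg1*, 0.26 ± 0.05 in libraries labelled *elp3 tcd1* and 0.29 ± 0.04 in *urm1 tcd1*. *RPP1A* made up 51.6%, 50.8%, 51.2% and 50.6% of the counts of its pair in *elp3 deg1* libraries, 55.1%, 54.4%, 54.8% and 55.2% in *urm1 deg1* libraries, 57.4%, 59.4% and 57.7% in those labelled *elp3 tcd1* and 60.1%, 60.1% and 60.4% in *urm1 tcd1* libraries, against 67.00%, 64.1%, 66.7% and 66.2% in WT. The B copy of *RPP1* gained instead, with changes of -0.90 ± 0.04, -0.67 ± 0.04, -0.48 ± 0.05 and -0.36 ± 0.04 in the same order.

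*RPL43* and *RPL35* shifted to their B copies. The share of *RPL43A* in its pair was 64.3%, 65.4%, 66.1% and 64.1% for *elp3 deg1*, 64.3%, 64.6%, 64.04% and 64.3% for *urm1 deg1*, 67.7%, 70.8% and 69.95% for the *elp3 tcd1* label and 70.6%, 70.5% and 70.8% for *urm1 tcd1*, against 78.02%, 76.9%, 77.7% and 76.7% for WT. The A percentage of *RPL43* was below every WT library in all mutants, with changes of -0.88 ± 0.05 in *elp3 deg1*, -0.92 ± 0.05 in *urm1 deg1*, -0.58 ± 0.06 in libraries labelled *elp3 tcd1* and -0.51 ± 0.06 in *urm1 tcd1*. Of the counts of the *RPL35* pair, the A copy took 63.3%, 57.8%, 57.97% and 55.1% in *elp3 deg1*, then 63.2%, 55.7%, 60.1% and 61.9% in *urm1 deg1*, 56.3%, 61.7% and 58.9% with the *elp3 tcd1* label and 63.9%, 64.1% and 63.96% in *urm1 tcd1*, against 68.8%, 72.6%, 69.8% and 69.5% in WT. *RPL35* changed by -0.73 ± 0.09, -0.63 ± 0.09, -0.71 ± 0.09 and -0.40 ± 0.09 in that order, with 19.9% of its windows unique. *RPL7A* made up 68.8%, 71.3%, 68.4% and 69.4% of the counts of its pair in *elp3 deg1* libraries, 69.5%, 67.9%, 70.5% and 70.9% in *urm1 deg1* libraries, 62.2%, 61.7% and 61.2% in those labelled *elp3 tcd1* and 69.5%, 70.6% and 68.8% in *urm1 tcd1* libraries, against 71.5%, 71.8%, 70.4% and 73.2% in WT. For *RPL7*, with 46.0% unique windows, the largest change was -0.65 ± 0.06 in libraries labelled *elp3 tcd1*.

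In 2 pairs the copy with more counts was not the one of WT. The share of *RPL9A* in its pair was 44.7%, 44.2%, 44.3% and 44.1% for *elp3 deg1*, 55.3%, 56.7%, 56.4% and 58.5% for *urm1 deg1*, 40.99%, 41.9% and 41.1% for the *elp3 tcd1* label and 62.6%, 61.8% and 64.3% for *urm1 tcd1*, against 57.1%, 54.6%, 56.5% and 56.5% for WT. The A copy of *RPL9* held 44.3% of the pair in *elp3 deg1* and 41.3% in libraries labelled *elp3 tcd1*, against 56.2% in WT, and the change was -0.69 ± 0.04 and -0.86 ± 0.05. In *urm1 deg1* it was 0.03 ± 0.04, which did not pass, and in *urm1 tcd1* 0.40 ± 0.05. The elp3 and urm1 mutants were tested against each other for this pair, which was added after seeing the data: the difference of the log2 ratio was -0.72 ± 0.04 between *elp3 deg1* and *urm1 deg1* and -1.27 ± 0.05 between libraries labelled *elp3 tcd1* and *urm1 tcd1*. Over all pairs, 23 differed between *elp3 deg1* and *urm1 deg1* (59.0% of the 61) and 21 between libraries labelled *elp3 tcd1* and *urm1 tcd1* (55.7%).

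The pairs with a copy on chromosome XI held the other named shifts of *urm1 tcd1*. Of the counts of the *RPL40* pair, the A copy took 54.9%, 54.1%, 56.4% and 54.02% in *elp3 deg1*, then 51.1%, 49.2%, 50.7% and 52.99% in *urm1 deg1*, 58.5%, 56.7% and 58.7% with the *elp3 tcd1* label and 41.2%, 42.3% and 40.6% in *urm1 tcd1*, against 56.7%, 55.7%, 56.8% and 56.3% in WT. *RPL40B* lies on chromosome XI, and the A percentage of *RPL40* was 41.3% in *urm1 tcd1* against 56.4% in WT, a change of -0.88 ± 0.04. In *urm1 deg1* the change was -0.31 ± 0.04, which also passed the test. *RPL17A* made up 64.6%, 66.6%, 65.4% and 65.7% of the counts of its pair in *elp3 deg1* libraries, 67.4%, 66.4%, 67.02% and 65.4% in *urm1 deg1* libraries, 64.2%, 64.5% and 65.4% in those labelled *elp3 tcd1* and 78.6%, 78.04% and 79.3% in *urm1 tcd1* libraries, against 65.1%, 65.9%, 66.3% and 66.3% in WT. The share of *RPL14A* in its pair was 55.1%, 50.9%, 55.7% and 54.8% for *elp3 deg1*, 60.8%, 59.1%, 59.5% and 60.9% for *urm1 deg1*, 57.9%, 56.5% and 56.6% for the *elp3 tcd1* label and 76.5%, 76.8% and 76.01% for *urm1 tcd1*, against 67.7%, 66.9%, 67.9% and 69.6% for WT. *RPL17A* and *RPL14A* lie on chromosome XI too, and their A percentages were highest in *urm1 tcd1*, with changes of 0.93 ± 0.04 and 0.61 ± 0.06. In the strains in which chromosome XI was not raised, the *RPL14* ratio moved to B, by -0.85 ± 0.06 in *elp3 deg1*, -0.50 ± 0.06 in *urm1 deg1* and -0.68 ± 0.07 in libraries labelled *elp3 tcd1*, while *RPL17*, at -0.02 ± 0.04, 0.04 ± 0.04 and -0.08 ± 0.05, did not pass the test.

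Several properties that did not enter the choice of genes were compared with the changes, as descriptions over the members within these same libraries. Members with and without an intron had medians of 0.24 and 0.21 in *elp3 deg1*, of 0.28 and 0.08 in *urm1 deg1*, of -0.07 and -0.09 in libraries labelled *elp3 tcd1* and of 0.73 and 0.79 in *urm1 tcd1*. The 27 members with the highest WT counts had medians of -0.02, 0.08, -0.23 and 0.61 in the order *elp3 deg1*, *urm1 deg1*, *elp3 tcd1* label, *urm1 tcd1*, and the 27 with the lowest had 0.43, 0.30, 0.10 and 0.81. Across the 81 genes, Pearson's r between log2 WT level and log2 fold change was -0.42, -0.31, -0.52 and -0.14 (Spearman's rho -0.45, -0.28, -0.50 and -0.20). The genes share libraries, and the WT level enters both measures, so no p is given.

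Rap1 letters were common before these genes. ACCCNNACA, searched on both strands of the 500 bases before the start codon, occurred in 36 of the 81 members (44.4%) and in 5.49% of 5988 such windows in all, ATCCNNNCA in 36 members (44.4%) and 16.6% of all, and the Abf1 consensus in 12 members (14.8%) and 22.7% of all. A Rap1 form alone was present in 52 members, both factors' letters in 10, Abf1 letters alone in 2 and neither in 17. The medians of the 52 were 0.26, 0.26, -0.06 and 0.80 in the order *elp3 deg1*, *urm1 deg1*, libraries labelled *elp3 tcd1*, *urm1 tcd1*, those of the 10 were 0.19, 0.31, -0.15 and 0.79, and those of the 17 were 0.24, 0.08, -0.06 and 0.71. *RPL4A* and *RPL4B*, with Abf1 letters alone, had medians of -0.74, -0.95, -0.59 and 0.20. Within 300 bases of the start codon, ACCCNNACA occurred in 19.8% of members and 3.12% of all, and ATCCNNNCA in 28.4% and 9.37%. The Abf1 consensus occurred there in 8.64% and 15%. No match says only that the letters are not in the window searched.

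The tRNAs that lose modifications in these strains read AAA and CAA codons among others, and the members use them unevenly. AAA made up 16.1% of their lysine codons, against 58.4% over 5988 genes, and CAA 99.6% of their glutamine codons, against 68.6%. Lysine was 11.9% of the residues of the median member, against 7.30% over all genes, and glutamine 3.62% against 3.69%. Across the 81 genes, Pearson's r between lysine percent and log2 fold change came to 0.47 in *elp3 deg1*, 0.43 in *urm1 deg1*, 0.41 in libraries labelled *elp3 tcd1* and 0.28 in *urm1 tcd1* (Spearman's rho 0.43, 0.43, 0.34 and 0.30). For the AAA share of lysine codons r was 0.20, 0.25, 0.25 and 0.04 in that order, and for coding length it was -0.40, -0.40, -0.38 and -0.33. These properties are themselves related among ribosomal proteins, and the values are descriptions of transcript levels only.

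The 56 genes of the small subunit, counted the same way, gave 34 increases and 5 decreases in *elp3 deg1*, 40 against 7 in *urm1 deg1*, 21 against 23 in libraries labelled *elp3 tcd1*, and 55 and none in *urm1 tcd1*, with medians of 0.17, 0.25, -0.06 and 0.85. Of all tested genes, 33.6%, 33.6%, 32.7% and 33.2% rose and 34.1%, 33.4%, 32.5% and 33.0% fell in the same order. Whether the 2 subunits differed was not tested.

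Genes that act on the large subunit proteins from outside were taken from lists chosen with earlier results known. In the order *elp3 deg1*, *urm1 deg1*, *elp3 tcd1* label, *urm1 tcd1*, 33.6%, 33.6%, 32.7% and 33.2% of all tested genes rose. In that order 34.1%, 33.4%, 32.5% and 33.0% fell. Whether any of the lists that follow differed from these shares was not tested. Of 9 regulators of ribosomal protein genes, 3 rose and 2 fell in each deg1 mutant, 7 rose in libraries labelled *elp3 tcd1* and 7 rose and 1 fell in *urm1 tcd1*. *SCH9*, the kinase that acts under TORC1, rose in all 4, by 0.43, 0.22, 0.91 and 0.81 on the log2 scale. *CRF1*, a corepressor of ribosomal protein genes, was at -0.31 in *elp3 deg1*, -0.06 in *urm1 deg1* (not passed), 0.97 in libraries labelled *elp3 tcd1* and -0.44 in *urm1 tcd1*. *IFH1*, the coactivator, rose by 0.47 in *elp3 deg1*, by 0.37 with the *elp3 tcd1* label and by 0.28 in *urm1 tcd1*, and *RAP1* fell by 0.41 in *elp3 deg1* and did not pass elsewhere. *ABF1*, which lies on chromosome XI, was at 0.18 in *elp3 deg1* (not passed), -0.46 in *urm1 deg1*, 1.11 in libraries labelled *elp3 tcd1* and 1.30 in *urm1 tcd1*.

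Of 7 chaperones that escort single large subunit proteins, 1 rose and 3 fell in *elp3 deg1*, 2 rose and 3 fell in *urm1 deg1*, 3 rose and 2 fell in libraries labelled *elp3 tcd1*, and 3 rose and 1 fell in *urm1 tcd1*. *ACL4*, which escorts Rpl4, fell by 0.53, 0.22 and 0.18 in the first 3 strains and was at -0.16 (not passed) in *urm1 tcd1*, beside the changes of *RPL4A* and *RPL4B* given above. *RRB1*, which escorts Rpl3, was at 0.13 in *elp3 deg1* (not passed), -0.33 in *urm1 deg1*, 0.06 in libraries labelled *elp3 tcd1* (not passed) and 0.17 in *urm1 tcd1*. *SQT1*, which escorts Rpl10, rose in *elp3 deg1* (0.28), libraries labelled *elp3 tcd1* (0.26) and *urm1 tcd1* (0.59).

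Of 6 measured enzymes that modify large subunit proteins, 2 rose and 3 fell in each deg1 mutant, 2 rose and 4 fell in libraries labelled *elp3 tcd1*, and 1 rose and 4 fell in *urm1 tcd1*. *RKM4*, which methylates Rpl42, fell in all 4, by 0.71, 0.78, 0.69 and 0.50 on the log2 scale, and *RKM5*, which methylates Rpl1, rose in all 4, by 0.63, 0.30, 0.43 and 0.48. Of 15 factors of late maturation and export, 5 rose and 6 fell in *elp3 deg1*, 4 rose and 4 fell in *urm1 deg1*, 8 rose and 3 fell in libraries labelled *elp3 tcd1*, and 8 rose and 5 fell in *urm1 tcd1*. *ALB1*, a shuttling factor of the subunit's precursor, rose by 0.74, 0.86, 1.43 and 1.33 in *elp3 deg1*, *urm1 deg1*, libraries labelled *elp3 tcd1* and *urm1 tcd1*. *JJJ1*, the J-protein that helps release it, fell by 1.01 in *elp3 deg1*, fell by 0.59 in *urm1 deg1* and did not pass in the other strains.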

How the data were processed

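Messenger RNA of 20 libraries was sequenced. The deposited tables hold raw read counts per gene over coding exons, made by the authors from STAR (2.5.1b) alignments to the R64 genome; the paper names htseq count, while the file headers name featureCounts (1.4.6-p2). Reads that fit 2 places are not counted by either program unless set, which lowers the counts of near-identical copies. TMM-scaled counts were tested with edgeR (4.0.16) quasi-likelihood tests over all genes passing filterByExpr (minimum count 10), each mutant with WT alone and mutants against each other in 1 fit, with Benjamini-Hochberg adjustment and a threshold of 0.01. Paralog ratios, log2((A + 0.5)/(B + 0.5)), were tested with limma (3.58.1) over 61 pairs. DESeq2 (1.42.0), other scalings, no filter, a replicate block and leaving out each library were alternatives. Unique windows used 58 bases.

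Values in every library are given for single-copy members, members on chromosome XI, the 3 largest increases and decreases and the 5 largest pair changes in each mutant among those past the test and not overlapping with WT; all other members may be named, and 1 pair that this rule takes in is counted in all totals but not reported here by name. The members and lists were chosen with earlier results of these data known. Both scripts for tests recovered known changes when tested on simulated data. In the simulation far fewer genes changed than were called here and no whole chromosome was raised, so it does not cover those features of the data.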

Additional observations from a re-analysis of the deposited data

Results flagged for a closer look

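Within groups of 4 libraries, 118 sets of member values were searched for a library far from the other 3, and 12 had one. Chance gives about 1 in 20 for separate sets, but these sets share libraries. Some were sets of the tcd1 labels with replicate 4 kept, already known to go against its label. The 12 are therefore not compared with chance. In *elp3 deg1*, *RPL29* had 371.1 CPM in replicate 3, against 358.5 to 360.1 in the others. In *urm1 deg1*, replicate 1 was high in the mean log2 level of the members (0.2704, others 0.177 to 0.1916), in *RPL15B* (103.1 CPM, others 85.95 to 87.22) and in *RPL28* (1812 CPM, others 1684 to 1696), and low in the share of *RPL15A* in its pair (94.73%, others 95.34% to 95.4%), and replicate 2 was low in *RPL34A* (388.7 CPM, others 398.5 to 399.7). In WT, *RPL14A* was high in replicate 1 (323.1 CPM, others 312.0 to 313.3), and *RPL17A* (812.2 CPM, others 769.3 to 776.5) and *RPL28* (1676 CPM, others 1574 to 1587) in replicate 3.

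The libraries left out were far from the others of their label. The library labelled *elp3 tcd1* replicate 4 had 6.513% of its counts on the members and a mean log2 level of 0.7187 relative to WT, against 4.317% to 4.508% and -0.1043 to -0.03729 in the other 3. The library labelled *urm1 tcd1* replicate 4 had a mean log2 level of -0.0263, against 0.6731 to 0.8094 in the others.

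The mutants were tested against each other directly, and the share of all tested genes past the test is given in brackets. Of the 81 members, 56 passed for the deg1 against the tcd1 mutants (64.7%) and 78 for the elp3 against the urm1 mutants (56.4%). For *elp3 deg1* against *urm1 deg1* 45 passed (62.4%), and for libraries labelled *elp3 tcd1* against *urm1 tcd1* 77 (60.0%). For the interaction 80 passed (67.6%). Pair ratios differed in 23 of 35 pairs between *elp3 deg1* and *urm1 deg1* (59.0% of all 61 pairs). They differed in 21 between libraries labelled *elp3 tcd1* and *urm1 tcd1* (55.7%).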

How the results depend on the processing

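Leaving out each library in turn gave 62 to 66 changed members in *elp3 deg1*, 59 to 61 in *urm1 deg1*, 57 to 60 in libraries labelled *elp3 tcd1*, 78 to 79 in *urm1 tcd1*, 47 to 55 for deg1 against tcd1, 76 to 78 for elp3 against urm1, 41 to 48 for *elp3 deg1* against *urm1 deg1*, 77 to 78 for libraries labelled *elp3 tcd1* against *urm1 tcd1* and 79 to 80 for the interaction, and 26 to 29, 23 to 24, 21 to 24 and 23 to 27 changed pairs in the 4 mutants. Of 1080 values of single genes and pairs under these fits, 15 lost the call and 8 gained it. Among them, *RPL10* in *urm1 deg1* lost it without *urm1 deg1* replicate 1 (0.06) or 3 (0.08) or WT replicate 1 (0.08), 3 (0.07) or 4 (0.07), *RPL39* in *urm1 deg1* without *urm1 deg1* replicate 2 (-0.12) or 4 (-0.10) or WT replicate 3 (-0.12), *RPL4A* in *urm1 tcd1* without *urm1 tcd1* replicate 1 (0.13) or 2 (0.07) or WT replicate 1, 2 or 4 (each 0.11) and *RPL40B* in libraries labelled *elp3 tcd1* without their replicate 3 (-0.13). *RPL28* in *urm1 deg1* gained it without *urm1 deg1* replicate 2 (0.09) or WT replicate 3 (0.10), and *RPL10* in libraries labelled *elp3 tcd1* without their replicate 2 (-0.10).

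With replicate 4 of both tcd1 labels kept, the called members were 5 in libraries labelled *elp3 tcd1*, 34 in *urm1 tcd1*, 10 for deg1 against tcd1, 4 for elp3 against urm1, 3 for *elp3 deg1* against *urm1 deg1* and 4 for the interaction. For libraries labelled *elp3 tcd1* against *urm1 tcd1* there were then 0 by edgeR (70 at an unadjusted p under 0.05, 0 by DESeq2). The changed pairs were then 12 and 16 in the tcd1 labels, 14 for *elp3 deg1* against *urm1 deg1* and 0 between the tcd1 labels (12 at an unadjusted p under 0.05 by limma). The median in libraries labelled *elp3 tcd1* turned to 0.21, *RPL40B* to 0.68, *RPL17A* to 0.61, *RPL14A* to 0.40 and *RPL5* to 0.15, none of them called, and the median in *urm1 tcd1* was 0.62.

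With a log2 fold change of at least 1 required, members numbered 1 in *elp3 deg1*, 0 in *urm1 deg1*, 0 in libraries labelled *elp3 tcd1*, 15 in *urm1 tcd1*, 0 for deg1 against tcd1, 3 for elp3 against urm1, 0 for *elp3 deg1* against *urm1 deg1*, 11 for libraries labelled *elp3 tcd1* against *urm1 tcd1* and 15 for the interaction. A ratio change of at least 0.5 left 11, 7, 8 and 11 pairs in the 4 mutants, and 4 and 9 pairs for elp3 against urm1 with deg1 and with tcd1.

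Library size alone as scaling turned *RPL3* (-0.27), *RPL4A* (-0.16), *RPL4B* (-0.0060) and *RPL28* (-0.0254) below 0 in *urm1 tcd1*, the first 2 past the test, and gave medians of 0.10 in *elp3 deg1*, 0.32 in *urm1 deg1*, -0.03 in libraries labelled *elp3 tcd1* and 0.49 in *urm1 tcd1*. Upper quartile scaling gave 0.31 in *urm1 deg1* and -0.0023 in libraries labelled *elp3 tcd1*. The share was also taken without rRNA, mitochondrial and chromosome XI genes in the total, and so for the 78 members off chromosome XI only. It was then 5.69% in *urm1 deg1*, 4.54% in libraries labelled *elp3 tcd1*, 6.85% in *urm1 tcd1* and 4.98% in WT. The causes were not tested.

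Replicate numbers did not pair the samples: the deviations of same-numbered libraries had a mean correlation of 0.00651, against -0.00221 for other pairs, and 3 of 14 mutant libraries correlated best with the WT library of their number. A replicate block gave 64, 62, 58 and 78 called members and 28, 23, 23 and 27 pairs in the 4 mutants, 52 members for deg1 against tcd1 and 78 for elp3 against urm1. Of the single genes, *RPL4A* in *urm1 tcd1* lost its call under it.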

Other observations

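The libraries left out of all comparisons held the following values. The library labelled *elp3 tcd1* replicate 4 had 5232 CPM of *RPL3*, 315 of *RPL41B*, 2665 of *RPL17A* and 1345 of *RPL40B*, and *RPL15A* made up 97.2% of its pair. The library labelled *urm1 tcd1* replicate 4 had 3038 CPM of *RPL3*, 198 of *RPL41B*, 730.3 of *RPL17A* and 369 of *RPL40B*, and *RPL15A* made up 94.2% of its pair.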
